A study of Sus scrofa with 6 samples.

Results

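The genes described here carry fatty acids into the pig liver cell, bind them in the cytosol and activate them to acyl-CoA. The list held 10 genes: the uptake genes CD36, SLC27A2, SLC27A4 and SLC27A5, the binding protein FABP1, and the acyl-CoA synthetases ACSL1, ACSL3, ACSL4, ACSL5 and ACSM5. A row of the deposited expression table was taken as a member when its gene symbol was on the list, and where several rows matched, the row with the highest mean over the 6 libraries was to be kept. By symbol 6 of the 10 were found (CD36, SLC27A2, FABP1, ACSL3, ACSL4 and ACSM5), with 1 row each. ACSL1 and ACSL5 were found by gene description, ACSL1 under the older symbol FACL2 and ACSL5 under its identifier ENSSSCG00000030645, and SLC27A4 was found by its Ensembl identifier under the symbol FATP4. SLC27A5 matched no row and was not analysed here. The 9 genes stood among 22571 loci with an Ensembl identifier, here called known loci, of 121055 assembled loci in all.

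Livers came from male PIC pigs aged 150 days that were fasted before slaughter. Per the study, all pigs had also undergone an intravenous glucose tolerance test shortly before that age. The 3 normal pigs belonged to a group of about 1.49 kg at birth and the 3 pigs with intrauterine growth restriction (IUGR) to a group of about 0.97 kg, all kept in the same environment. Each library was poly(A) RNA from 1 liver, and the values were FPKM, that is fragment numbers relative to the length of the transcript and to the mapped fragments of the library. The study drew its normal and IUGR piglets as littermates, but the labels do not say whether pigs with the same number were littermates.

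Long-chain fatty acids released by adipose tissue reach the liver bound to albumin, and their supply rises in fasting. CD36 and the SLC27 family (fatty acid transport proteins) move them across the membrane, FABP1 holds them in the cytosol, and acyl-CoA synthetases join them to coenzyme A. That step traps the fatty acid in the cell and precedes its oxidation in mitochondria and peroxisomes as well as its use for triglyceride and phospholipid. In mice and humans the nuclear receptor PPARA raises several of these genes in the fasted liver.

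None of the 9 genes was called different between IUGR and normal pigs. Each gene was compared on log2(FPKM + 1) by limma's two-sided test. It ran over 14727 known loci whose mean FPKM was 0.3 or more, p was adjusted over all of them by the Benjamini-Hochberg method, and an adjusted p under 0.05 was called. All 9 genes passed the filter, and 0 of the 9 were called, where 0.0204% of the tested loci were called (1 higher and 2 lower in IUGR pigs). At an unadjusted p under 0.05 the count was also 0 of 9, where 6.79% of the tested loci lay. Their adjusted p ran from 0.782 to 0.997. In simulated data, with noise drawn independently for each locus, the same model called 21 of 100 loci changed by 1 on the log2 scale. The lack of a call therefore does not show that a gene was unchanged. The median log2 fold change of the 9 genes was 0.30 and that of all tested loci 0.15, and 6 of the 9 lay above the latter. No gene had all IUGR pigs on one side of all normal pigs, either as deposited or after scaling the libraries to the same median, where 9.6% and 15.8% of the tested loci had. Exact permutation of 3 against 3 pigs reaches no p smaller than 0.1 for any gene, and it gave 0.2 (ACSL4) to 1 (SLC27A4).

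The libraries varied along another line. The total mapped ratio, the share of reads aligned to the genome in the study's alignment summary, was higher in normal 1, IUGR 2 and IUGR 3 than in normal 2, normal 3 and IUGR 1. The median FPKM of the tested loci was 5.10 to 5.94 in the higher and 3.83 to 4.82 in the lower set. IUGR 2 and IUGR 3 were the closest pair of libraries, with a robust SD of their log2 ratio of 0.104 over 4848 loci, where the other pairs had 0.259 to 0.326. The 6 hepatocyte markers with the status OK were high in every library, with a mean of 9164 FPKM for TTR (transthyretin) and 2674 for APOA1 (apolipoprotein A1). ALB (albumin) was listed at 0 in all 6 libraries with a status that marks too many fragments to estimate. TF (transferrin), also without the status OK throughout, was at 0 in normal 1, IUGR 2 and IUGR 3, the higher set. It was at 4780, 6643 and 7906 in normal 2, normal 3 and IUGR 1. The 9 genes had the status OK in every library.

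FPKM is scaled by transcript length, so the levels of the genes could be set in order. FABP1 stood highest with a mean of 993 FPKM over the 6 libraries, followed by ACSL1 with 401. FABP1 lay above ACSL1 in 5 of the 6 libraries, the exception being normal 3. ACSL3 at 50.0, ACSL4 at 43.6 and SLC27A2 at 41.6 formed a middle tier in which each neighbour was the higher in 3 of 6 libraries, so their order was not resolved. ACSL5 at 12.8 and ACSM5 at 11.3 followed, with ACSL5 the higher in 4 of 6, and SLC27A4 at 3.60 and CD36 at 2.27 FPKM stood lowest, with SLC27A4 the higher in 5 of 6. Of all tested loci, 99.6% had a lower mean than FABP1 and 31.2% a lower mean than CD36.

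**Figure D1:**
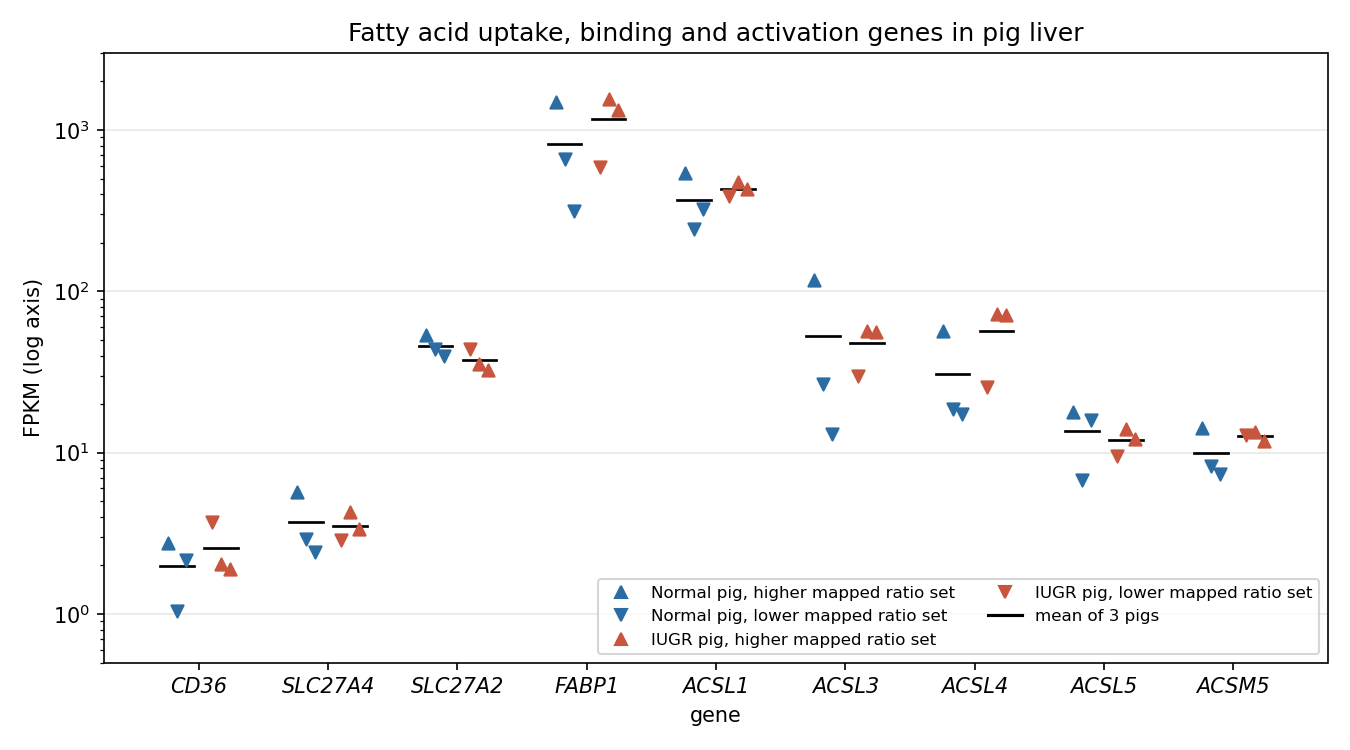
FPKM (log axis) of the 9 genes in each library, with normal pigs in blue, IUGR pigs in red, upward triangles for the higher and downward triangles for the lower mapped ratio set, and black lines for the mean of 3 pigs. FABP1, ACSL3 and ACSL4 are high in the same 3 libraries (normal 1, IUGR 2 and IUGR 3), and the normal and IUGR points overlap for every gene.

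Of the uptake genes, CD36 encodes a membrane glycoprotein that binds long-chain fatty acids. Its locus spans 9:110039903-110106938 (Sscrofa10.2). CD36 measured 2.75, 1.05 and 2.16 FPKM in normal 1, 2 and 3 and 3.72, 2.05 and 1.90 in IUGR 1, 2 and 3. The highest value belonged to IUGR 1 and the lowest to normal 2, with the others between. The means were 1.99 ± 0.865 in normal and 2.56 ± 1.01 in IUGR pigs (SD, n = 3 each), a log2 fold change of 0.26 (SE 0.26, adjusted p = 0.889 by limma). It was 0.011 without normal 2, 0.038 without IUGR 1 and 0.45 without normal 1.

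SLC27A2 (1:135172999-135221869) encodes FATP2, a transport protein that also activates very long-chain fatty acids. SLC27A2 measured 53.6, 43.9 and 40.0 FPKM in normal pigs and 44.0, 35.6 and 32.7 in the 3 IUGR pigs. In the values as deposited it was the steadiest of the 9 genes, with 1.64 times between the highest and lowest library. The median for tested loci with a mean of at least 1 FPKM was 1.90. IUGR 2 and IUGR 3 lay below every normal pig, and IUGR 1 lay above normal 2 and normal 3. The log2 fold change was -0.29 (SE 0.27, adjusted p = 0.887 by limma), and -0.17 without normal 1. After scaling to the same median SLC27A2 stood at 44.2, 50.5 and 51.1 in the normal pigs and 44.7, 30.0 and 31.4 in the IUGR pigs. On that scale the log2 fold change was -0.47, with a 95% interval of -0.87 to -0.068, an unadjusted p of 0.0279 and an adjusted p of 0.475 by limma.

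SLC27A4 (1:302736095-302814406) encodes FATP4, another transport protein with acyl-CoA synthetase activity. SLC27A4 measured 5.74, 2.93 and 2.42 FPKM in the normal pigs, against 2.87, 4.28 and 3.38 in the IUGR pigs. The higher values belonged to normal 1, IUGR 2 and IUGR 3, and the log2 fold change between the groups was -0.0057 (SE 0.26, adjusted p = 0.997 by limma). Its span in the table is shared with URM1, ENSSSCG00000005646 and ENSSSCG00000005645, so the ends given are those of the assembled bundle and not of the gene. SLC27A2 made up 89.3 to 94.3% of the summed FPKM of SLC27A2 and SLC27A4 in each library.

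FABP1, the liver fatty acid binding protein, is the main intracellular carrier of long-chain fatty acids in hepatocytes. Its table span, 3:60577395-60679564, runs over 102170 bases and is shared with CD8B, SMYD1 and ENSSSCG00000008211. FABP1 measured 1499, 658 and 313 FPKM in normal pigs and 591, 1565 and 1333 in the 3 IUGR pigs, 4.997 times between the highest and the lowest. Normal 1, IUGR 2 and IUGR 3 were the 3 high libraries, and no other library exceeded 658. The group means were 823 ± 610 and 1163 ± 509 (SD, n = 3 each), and the log2 fold change was 0.66 (SE 0.56, adjusted p = 0.884 by limma), with a 95% interval of -0.55 to 1.88. It was 0.11 without normal 3, 1.24 without normal 1 and 0.16 with the mapped ratio set as a second factor. In a sample of whole liver, fewer hepatocytes and less FABP1 RNA per hepatocyte cannot be told apart.

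Among the synthetases, ACSL1 (15:52525921-52592779) is the long-chain enzyme best known from liver, heart and adipose tissue. ACSL1 measured 539, 244 and 326 FPKM in the normal pigs and 390, 477 and 434 in the IUGR pigs. The 3 IUGR values lay within the range of the normal values, and the log2 fold change was 0.30 (SE 0.38, adjusted p = 0.897 by limma). It was 0.044 without normal 2, 0.61 without normal 1, 0.11 with the mapped ratio set as a second factor, and 0.030 after scaling to the same sum.

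ACSL3 (15:138663533-138712635) sits on the endoplasmic reticulum and on lipid droplets. ACSL3 measured 118, 26.6 and 12.97 FPKM in the normal pigs, against 29.9, 57.1 and 55.7 in the IUGR pigs, and so was the most variable of the 9 genes, with 9.10 times between normal 1 and normal 3. Of tested loci with a mean of at least 1 FPKM, 1.24% varied more. All 3 IUGR values lay between normal 1 and normal 2, and the groups gave no steady order. The log2 fold change was 0.38 (SE 0.59, adjusted p = 0.904 by limma) while the ratio of the mean FPKM was 0.906. Without normal 3 the log2 fold change was -0.30 and without normal 1 it was 1.25, so single normal pigs set its sign and size.

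ACSL4 (X:105356188-105452695) prefers arachidonic acid and feeds it into phospholipid. The row joins ACSL4 with CH242-17O13.4 and KCNE5, and its value cannot be split between them. ACSL4 measured 56.8, 18.6 and 17.3 FPKM in normal pigs and 25.6, 72.4 and 71.1 in the 3 IUGR pigs. IUGR 2 and IUGR 3 were above every normal pig, and IUGR 1 lay between normal 2 and normal 1. The means were 30.9 ± 22.4 and 56.4 ± 26.7 (SD, n = 3 each), 1.83 times higher in IUGR pigs. The log2 fold change of 0.92 was the largest of the 9 genes, with a 95% interval of -0.11 to 1.95 and an adjusted p of 0.782 by limma. With the mapped ratio set as a second factor it was 0.41 (95% interval 0.054 to 0.77, unadjusted p = 0.0288, adjusted p = 0.581), within the higher set IUGR minus normal was 0.33, and within the lower set it was 0.49. These within-set values compare 1 pig with 2. It was 1.46 without normal 1, 1.41 without IUGR 1 and 0.63 to 0.69 without any other single library.

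ACSL5 (14:133689910-133751509) is found at mitochondria and the endoplasmic reticulum. ACSL5 measured 17.9, 6.76 and 16.0 FPKM in the normal pigs and 9.56, 14.04 and 12.2 in the IUGR pigs, with the highest and the lowest value both in normal pigs. The log2 fold change was -0.085 (SE 0.33, adjusted p = 0.959 by limma), and it changed sign when normal 1, normal 3 or IUGR 1 was left out. ACSM5 (3:26172262-26260535), a medium-chain synthetase of mitochondria, measured 14.2, 8.28 and 7.37 FPKM in the normal pigs, against 12.8, 13.3 and 11.8 in the IUGR pigs. The IUGR pigs were alike (12.7 ± 0.772) and lay above normal 2 and normal 3 but below normal 1. The log2 fold change was 0.37 (SE 0.27, adjusted p = 0.876 by limma). It was 0.20 without normal 3 and 0.63 without normal 1. Without normal 1 its adjusted p was 0.103, the lowest that any of the 9 genes reached in 19 alternative fits, so no alternative gave a call. Whether the authors' processing divided reads between ACSM5 and other ACSM loci was not tested.

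**Figure D2:**
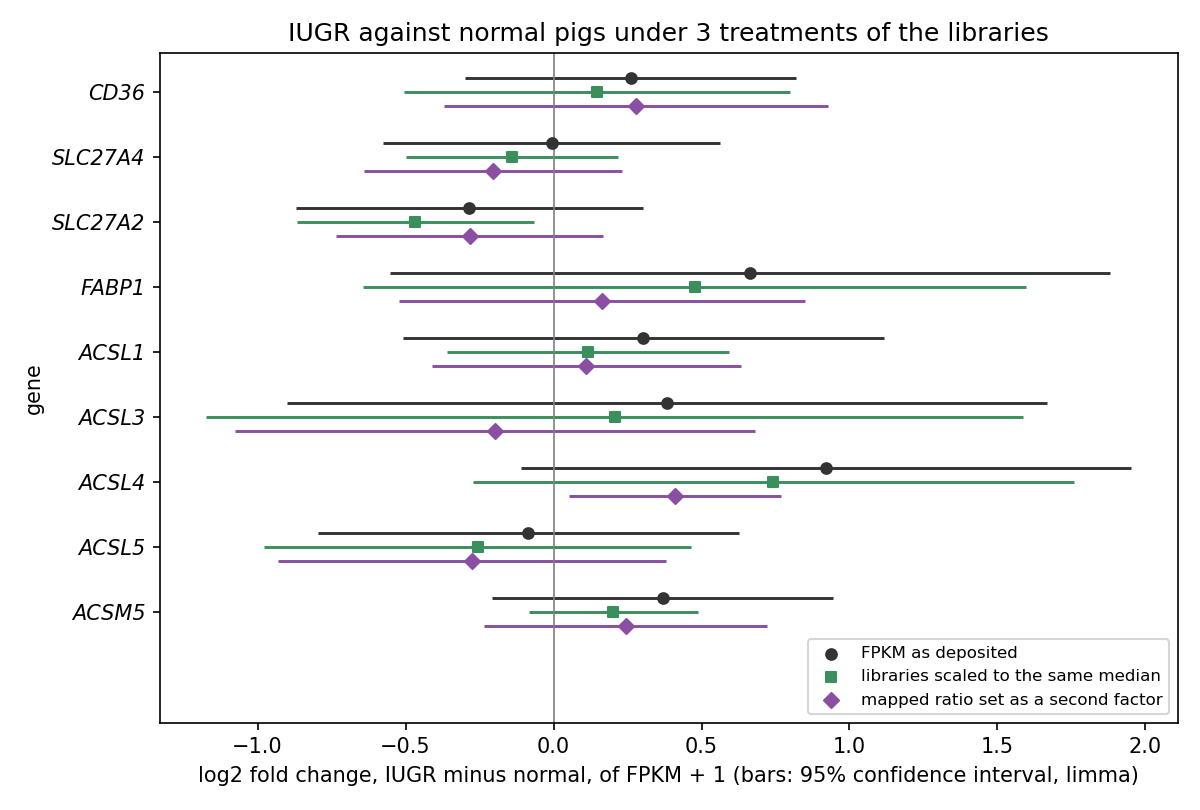
Log2 fold change (IUGR minus normal, of FPKM + 1) of the 9 genes with 95% confidence intervals from limma, for FPKM as deposited (circles), libraries scaled to the same median (squares) and the mapped ratio set as a second factor (diamonds). The intervals of the values as deposited all include 0, and the estimate for ACSL4 moves from 0.92 to 0.41 with the second factor. The interval lies above 0 for ACSL4 with that factor and below 0 for SLC27A2 after median scaling.

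The libraries were also compared by mapped ratio, in sets chosen with earlier results of these data known. The calls between these sets are therefore a description. Between the sets, limma called FABP1, ACSL3 and ACSL4 higher in the higher set, 3 of 9 genes, where 7.5% of the tested loci were called higher and 0.143% lower (1104 and 21 loci). These whole-table counts fell to 2 and 2 after scaling to the same median, to 1 and 2 after scaling to the same sum, to 60 and 6 with the birth weight group as a second factor and to 3 and 2 with IUGR 2 and IUGR 3 averaged. With 1 library left out they were highest without IUGR 1, at 3697 and 55, and lowest without IUGR 3, at 3 and 2. The log2 difference was 1.56 for FABP1 (SE 0.28, adjusted p = 0.0415), 1.68 for ACSL3 (SE 0.36, adjusted p = 0.0421) and 1.67 for ACSL4 (SE 0.19, adjusted p = 0.0188). The sets did not overlap for these genes, ACSL1 and SLC27A4, 5 of 9, where 44.3% of the tested loci had every library of the higher set above every library of the lower set. The median difference of the 9 genes was 0.53 and that of all tested loci 0.32. CD36 (0.040) and SLC27A2 (-0.10) lay below the latter. After scaling to the same median SLC27A2 had -0.48 and after scaling to the same sum -0.65 (adjusted p = 0.279 and 0.180 by limma).

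These calls were not stable. After scaling to the same median the differences of FABP1, ACSL3 and ACSL4 were 1.17, 1.31 and 1.29, with adjusted p of 0.167, 0.201 and 0.0907 by limma, and none was called. With IUGR 2 and IUGR 3 averaged and counted as 1 replicate the adjusted p were 0.128, 0.128 and 0.0959, and with the birth weight group as a second factor only ACSL4 was called (adjusted p = 0.0140). The calls of FABP1 and ACSL3 were lost when any library other than IUGR 1 was left out, with adjusted p of up to 0.203 for each, and that of ACSL4 when normal 3, IUGR 2 or IUGR 3 was left out (up to 0.0914). Since 2 of the 3 IUGR pigs are in the higher set and 2 of the 3 normal pigs in the lower, part of any difference between the groups cannot be told apart from a difference between the sets.

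Shares within a family do not move when a whole library is scaled. ACSL1 made up 73.7 to 87.5% of the summed FPKM of the 4 ACSL genes. The ACSL1 share was 73.7, 82.4 and 87.5% in normal pigs and 85.7, 76.9 and 75.7% in the 3 IUGR pigs. It was lower in the higher mapped ratio set (mean 75.4%) than in the lower set (85.2%), with no overlap. The exact permutation test between the sets gave p = 0.1, the smallest that 3 against 3 allows. The shares of ACSL3, ACSL4, SLC27A2 and SLC27A4 did not overlap between the sets either, and that of ACSL5 did. ACSL3 took 16.1, 9.002 and 3.49% in the normal pigs and 6.58, 9.20 and 9.73% in the IUGR pigs. ACSL4 took 7.76, 6.28 and 4.66% in the normal pigs, against 5.62, 11.7 and 12.4% in the IUGR pigs, so that ACSL4 exceeded ACSL3 in IUGR 2, IUGR 3 and normal 3. Between the groups the exact permutation test gave p = 0.9, 0.9 and 0.3 for ACSL1, ACSL3 and ACSL4 (adjusted 0.9, 0.9 and 0.75).

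ACSL5 was the only one of the 4 whose share did not overlap between the groups. The ACSL5 share was 2.45, 2.29 and 4.31% in normal pigs and 2.102, 2.26 and 2.13% in the 3 IUGR pigs. The means were 3.02 ± 1.12 and 2.17 ± 0.0867% (SD, n = 3 each). The exact two-sided permutation test gave p = 0.1, the smallest that 3 against 3 allows, and 0.6 after Benjamini-Hochberg adjustment over the 6 family shares compared in this way. Normal 2 and IUGR 2 differed by less than 0.1 percentage points, and normal 3 alone was above 3%.

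**Figure D3:**
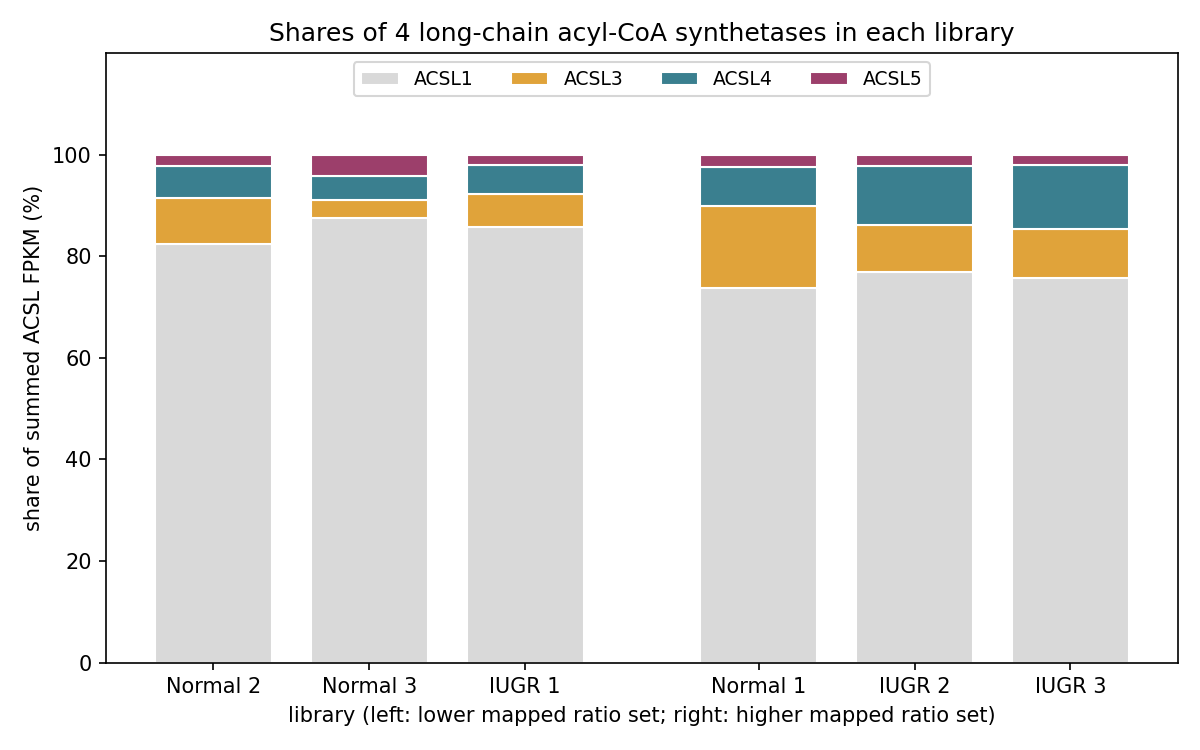
Share (%) of ACSL1, ACSL3, ACSL4 and ACSL5 in the summed FPKM of the 4 genes in each library, with the lower mapped ratio set on the left and the higher on the right. ACSL1 takes 82.4 to 87.5% on the left and 73.7 to 76.9% on the right, ACSL3 is largest in normal 1 (16.1%) and ACSL4 in IUGR 3 (12.4%).

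The rest of the pathway was described from 5 lists. Of 40 tested genes 0 were called, 3 lay higher and 1 lower at an unadjusted p under 0.05 (6.79% of all tested loci lay under it), and 23 lay above the median of all tested loci. Their median log2 fold change was 0.19. The groups did not overlap for 4 of the 40 (SLC27A3, GOT2, ACSF3 and PPARGC1A), near the share of 9.6% among all tested loci. Between the mapped ratio sets 9 of the 40 were called, all higher in the higher set, where 7.5% of the tested loci were called higher.

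Among 6 other uptake genes, with a median of 0.21, SLC27A3, a further transport protein, measured 0.691, 0.419 and 0.493 FPKM in the normal pigs and 0.819, 1.09 and 0.812 in the IUGR pigs. GOT2, the mitochondrial aspartate aminotransferase that is also described as a fatty acid binding protein of the plasma membrane, measured 26.5, 28.7 and 22.4 in the normal pigs, against 28.8, 47.9 and 45.0 in the IUGR pigs. Neither gene overlapped between the groups, and both missed the threshold (log2 fold change 0.31, adjusted p = 0.738, and 0.60, adjusted p = 0.747, by limma). SLC27A6 reached 9.31 FPKM in normal 2 but 0.615 to 3.85 in the other libraries (log2 fold change -0.91, adjusted p = 0.780), and CAV1, the caveolar coat protein caveolin 1, had 0.26.

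Of 12 further binding genes 8 were tested, with a median of 0.058, below that of all tested loci, and of -0.062 after scaling to the same median. FABP2, FABP6 and FABP7 lay under the filter, and FABP4 matched no row. FABP5 measured 2.31, 0.964 and 1.52 FPKM in normal pigs and 5.18, 1.67 and 1.53 in the 3 IUGR pigs, with IUGR 1 far above the others and a log2 fold change of 0.45 (adjusted p = 0.862 by limma). ACBD6 had 0.27, SCP2 (sterol carrier protein) 0.35 and ACBD5 -0.18, the ACBD proteins being binders of acyl-CoA.

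The 8 tested genes of other activation had a median of 0.41, and 7 of them lay above the median of all tested loci. ACSS2, which makes acetyl-CoA from acetate in cytosol and nucleus, measured 41.6, 9.73 and 9.79 FPKM in the normal pigs and 35.5, 66.1 and 61.5 in the IUGR pigs. Normal 1 lay above IUGR 1, and the other 2 normal pigs were below every IUGR pig. The log2 fold change of ACSS2 was 1.65 (SE 0.47, unadjusted p = 0.0039, adjusted p = 0.405 by limma), and it was 1.18 with the mapped ratio set as a second factor. ACSS2 was also higher in the higher mapped ratio set, by 1.80 (adjusted p = 0.0469). ACSF3, a mitochondrial malonyl-CoA synthetase, measured 8.89, 8.20 and 5.77 in the normal pigs, against 10.7, 14.6 and 12.2 in the IUGR pigs, without overlap (0.65, adjusted p = 0.588). ACSS1 and ACSF2 had log2 fold changes of 0.36 and 0.45.

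Acyl-CoA thioesterases run the opposite reaction and free the fatty acid. The 6 that were tested had a median of 0.26. ACOT7 measured 2.93, 1.46 and 1.29 FPKM in normal pigs and 2.11, 3.91 and 3.83 in the 3 IUGR pigs (log2 fold change 0.58, adjusted p = 0.716 by limma), and ACOT13, ACOT8 and ACOT9 had 0.60, 0.38 and 0.14. Among 12 regulators, with a median of 0.15 and of -0.031 after scaling to the same median, the lowest p belonged to AHR, the aryl hydrocarbon receptor, at 58.3, 63.0 and 33.3 FPKM in the normal pigs and 36.4, 28.5 and 27.4 in the IUGR pigs (-0.68, adjusted p = 0.722). PPARGC1A, a coactivator of fasting metabolism, measured 8.47, 4.85 and 5.82 in the normal pigs, against 3.90, 4.51 and 4.66 in the IUGR pigs, without overlap (-0.43, adjusted p = 0.811). FOXA2 and PPARD had 0.34 and 0.23. PPARG lay under the filter, and RXRA and SREBF1 matched no row and were not analysed here.

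**Figure D4:**
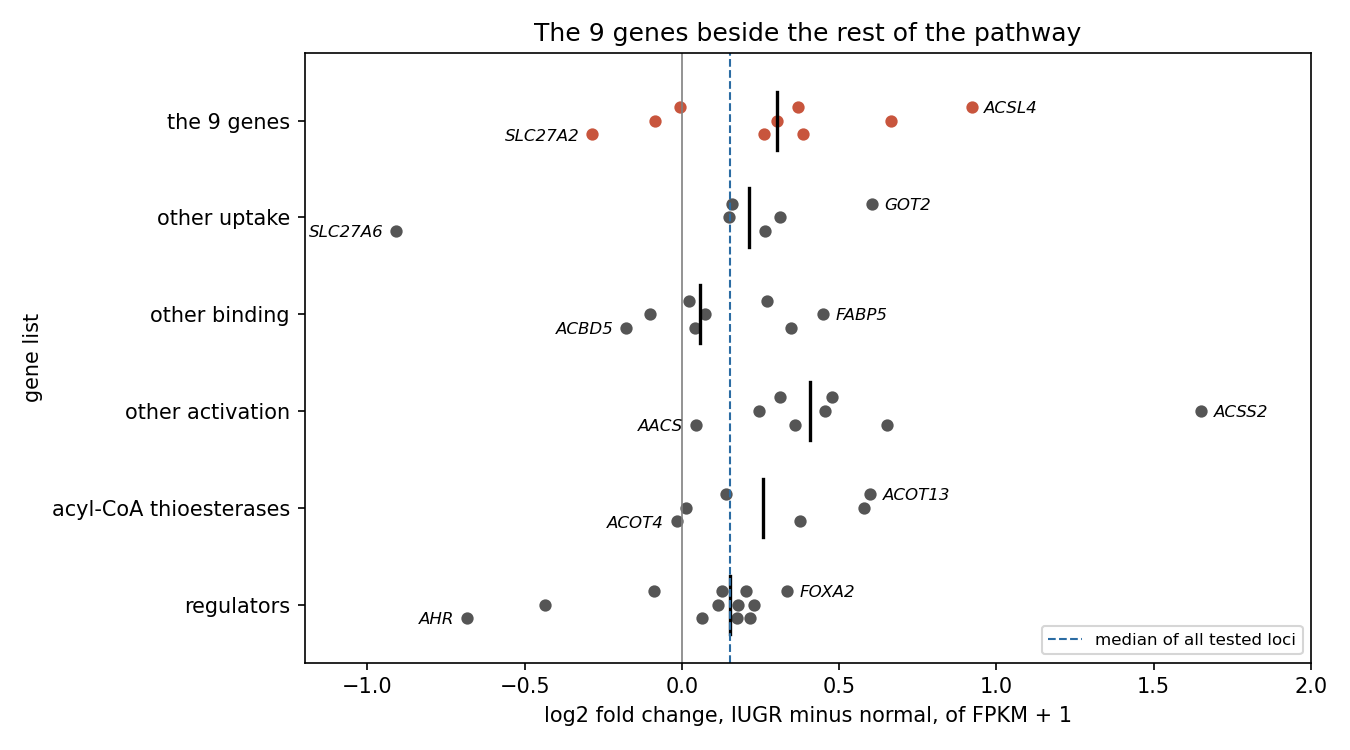
Log2 fold change (IUGR minus normal, of FPKM + 1) of each tested gene, 1 point per gene, for the 9 genes (red) and 5 lists of the rest of the pathway (grey), with a black line for each median and the lowest and highest gene named. ACSS2 (1.65) stands farthest to the right and SLC27A6 (-0.91) farthest to the left, and no point shown was called.

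Markers of other liver cells were set beside these values. The summed FPKM of 5 endothelial markers was 158 to 318 in normal and 312 to 387 in IUGR pigs. That of 4 stellate cell and fibroblast markers was 34.9 to 65.6 in normal and 66.9 to 86.5 in IUGR pigs, without overlap, leaving out COL3A1, whose estimate failed in normal 1. None of the endothelial and stellate markers was called, and 3 of the 4 stellate and 2 of the 5 endothelial markers (PECAM1 and VWF) had an unadjusted p under 0.05, as had 6.79% of all tested loci. Blood markers (HBB, ALAS2 and S100A8) summed to 603 to 1501 in normal and 969 to 2019 in IUGR pigs. Of these S100A8, a calgranulin of neutrophils and monocytes, measured 1.82, 1.15 and 0.970 FPKM in normal pigs and 5.85, 3.44 and 3.98 in the 3 IUGR pigs, without overlap (log2 fold change 1.22, adjusted p = 0.122 by limma). Of all tested loci, 9.6% had no overlap between the groups. The sums of 3 lymphocyte markers (9.10 to 11.1 and 9.14 to 11.96) and of 3 cholangiocyte markers (7.74 to 16.6 and 11.7 to 16.4) overlapped between the groups. The sum of 6 macrophage markers was 224 to 509 and 298 to 393, with CD163 near 0 in every library. Only PLIN1 and CIDEC of 5 adipocyte markers had a row, with sums of 4.76 to 7.55 and 6.67 to 7.45. The hepatocyte sum, over 6 markers without ALB and TF, was 15010 to 28541 in normal and 18257 to 26981 in IUGR pigs. By mapped ratio it was 23439 to 28541 in the higher and 15010 to 18257 in the lower set. The macrophage sum separated the same libraries, with 322 to 509 against 224 to 298, and so did the 44.3% of tested loci given above. The endothelial sum overlapped between the sets, with 312 to 387 in the higher and 158 to 319 in the lower. The stellate, adipocyte, cholangiocyte, lymphocyte and blood sums overlapped as well. These sums follow their most abundant genes. Of the hepatocyte markers TTR, HP, APOA1 and SERPINA1 separated the sets, while APOB and CPS1 overlapped. Of the macrophage markers C1QA and C1QB separated them, while CD68, CD163, MARCO and CSF1R overlapped. The sums therefore do not stand for every marker of a cell type. The part of these cell types in the levels of the 9 genes was not tested.

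For the 3 genes that varied most, the loci of most similar pattern over the 6 libraries were listed, after scaling to the same median. ACSL3 was closest to SPAG7, TAF1B and ACTR3 (Pearson r = 0.996, 0.995 and 0.995, n = 6 libraries). ACSL4 was closest to ITPR1, VPS35 and COX7A2 (0.998, 0.995 and 0.994, n = 6), and FABP1 to INMT, JMJD8 and ATP5ME (0.993, 0.991 and 0.990, n = 6). Among the 9 genes themselves, FABP1 had an r of 0.89 with ACSL3 and 0.88 with ACSL4, while ACSL4 had -0.91 with SLC27A2. The points share their libraries, and these likenesses, picked as the highest of all known loci with a symbol, are a description only.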

How the data were processed

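The authors sequenced poly(A) RNA from the liver of 3 normal pigs and 3 IUGR pigs as read pairs. Per the labels and the methods, the authors used TopHat2 2.0.14 with Bowtie2 2.0.6 to align the reads, Cufflinks 2.2.1 for the assembly and Cuffdiff 2.1.1 for the FPKM values. The authors deposited FPKM in 1 table with a status per library and no read counts, so the number of fragments behind a single value is unknown and edgeR 3.2, named by the authors, was not used. The labels name Sscrofa10.2, and the paper names another build outside its methods. Coordinates are those of the table, made 1-based, and are the ends of the assembled bundle.

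Groups were taken from the sample titles. The comparison of IUGR and normal libraries used log2(FPKM + 1) without further scaling, known loci whose mean FPKM reached 0.3, and limma 3.58.1 (lmFit and trended eBayes) under R 4.3.3. Low genes have understated fold changes on this scale. The mapped ratio sets were compared by the same model. The members, the 5 pathway lists, the marker lists and the mapped ratio sets were chosen with earlier results of these data known.

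Named genes were all members, up to 4 genes of each list with the lowest p, and for the 3 members with the largest SD the 3 most similar loci. Alternatives changed the pseudocount (0.1, 0.01), the filter (none, or a mean of at least 1), the scaling (to the same median or sum, or by quantiles), the variance model, the mapped ratio factor, a replicate block, and the libraries. Counting the 3 genes not found by symbol, leaving out or averaging libraries in the mapped ratio comparison, and leaving failed estimates out of marker sums were added after seeing the data. Tested on simulated data of the IUGR and normal comparison over 14727 loci, the model called 21 of 100 loci changed by 1 on the log2 scale, 83 of 100 changed by 2, and 7 of 14527 unchanged. Promoter motifs were not searched and no sequence is printed, since no sequence table was used here. Tables were computed with pandas 2.3.3, scipy 1.17.1 and numpy 2.4.6 under Python 3.11.15, and plots with matplotlib 3.10.9.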

Additional observations from a re-analysis of the deposited data

How the results depend on the processing

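None of the 9 genes, or of the 6 found by symbol, was called between IUGR and normal pigs under any of the 19 alternatives. Summing all rows of a symbol gave no other value, since each gene had 1 row. The count of known loci called higher in IUGR pigs, 1 in the reported fit, was 3 at a pseudocount of 0.1, 5 with a mean of at least 1 FPKM, 30 with a robust variance model, 10 with IUGR 2 and IUGR 3 averaged, 5 among loci with the status OK, and 3 to 128 with 1 library left out. The count called lower, 2 in the reported fit, was 1 at pseudocounts of 0.1 and 0.01, 6 with a mean of at least 1 FPKM, 6 with the robust model, 6 with the averaged pair, 5 with the status OK, 0 with no filter, same-median, same-sum or quantile scaling or no trend, and 1 to 30 with 1 library left out. IUGR 1 was the library whose absence gave the most calls. With a replicate block 166 were called higher and 79 lower. Libraries of the same number did not deviate together (correlations of -0.223, -0.0724 and -0.167), and no library correlated best with its own number. The deviations still held the difference between the mapped ratio sets, and normal and IUGR libraries of the same number always belong to different sets. They therefore cannot decide whether pigs of the same number were littermates.

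Signs near 0 were not stable. The IUGR minus normal log2 fold change of SLC27A4 was 0.0075 and 0.0095 at pseudocounts of 0.1 and 0.01 and -0.20 to 0.29 with 1 library left out, that of ACSL1 was -0.094 after quantile scaling, that of ACSL3 was -0.20 with the mapped ratio factor and -0.30 to 1.25 with 1 library left out, and that of ACSL5 was -0.49 to 0.16. The ACSL1 share changed by -1.79 percentage points, by 2.62 and 0.71 within the higher and lower sets and by -5.57 to 1.38 with 1 library left out. The ACSL3 share changed by -1.03, by -6.66 and 0.335 within the higher and lower sets and by -4.06 to 2.26 with 1 library left out. The median of the binding list was -0.062 after same-median scaling and -0.070 with the mapped ratio factor, and that of the regulators was -0.031 after same-median scaling.

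Between the mapped ratio sets, same-median scaling gave 1.17 for FABP1, 1.31 for ACSL3, 1.29 for ACSL4 and -0.22 for CD36, and same-sum scaling 0.996, 1.13, 1.12 and -0.33, with -0.044 for ACSL5 and -0.056 for ACSM5. With the birth weight group as a second factor FABP1 had 1.505, ACSL3 1.75 and CD36 -0.053. With IUGR 2 and IUGR 3 averaged FABP1 had 1.57, ACSL3 1.85, ACSL4 1.61 and SLC27A2 0.0064. With 1 library left out FABP1 ran from 1.23 to 1.76, ACSL3 from 1.32 to 1.90, ACSL4 from 1.56 to 1.83, ACSL1 from 0.43 to 0.77, ACSM5 from 0.31 to 0.68, CD36 from -0.27 to 0.34 and SLC27A2 from -0.31 to 0.037. Without IUGR 1 ACSL1 and ACSM5 were called as well. The cause of these changes was not tested. Without counts, what depth limits cannot be given.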

Other observations

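ACSM5 lies in a run of medium-chain synthetase loci on chromosome 3 (Sscrofa10.2), and its neighbours had higher levels. ACSM4 (3:26080555-26106382) had a mean of 721 FPKM, above ACSL1, and measured 965, 594 and 455 in normal pigs and 587, 898 and 825 in the 3 IUGR pigs. ACSM3 (3:26031731-26068257) had a mean of 40.6 and measured 38.4, 25.2 and 36.5 in the normal pigs and 31.0, 60.7 and 52.1 in the IUGR pigs. The locus ENSSSCG00000007858 (3:26138339-26166366), without a symbol, measured 79.7, 25.0 and 58.7 in the normal pigs, against 56.3, 92.3 and 87.7 in the IUGR pigs. None was called between the groups (adjusted p = 0.905, 0.862 and 0.857 by limma), and none between the mapped ratio sets (0.0511, 0.0651 and 0.0654). ACSM1, ACSM2A and ACSM2B matched no row. These loci were named after their values were seen.

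FABP3, the heart-type binding protein, had a mean of 1.18 FPKM, while a locus under the older symbol H-FABP (6:81714146-81715640) had a mean of 18.0. The H-FABP locus measured 35.8, 9.55 and 5.82 in normal pigs and 12.4, 25.6 and 18.6 in the 3 IUGR pigs, with a log2 difference of 1.44 between the mapped ratio sets (adjusted p = 0.0421 by limma) and of 0.47 between the groups (adjusted p = 0.894). FABP3 itself measured 2.78, 0.344 and 0.503 in the normal pigs and 0.257, 1.81 and 1.36 in the IUGR pigs. Whether both loci hold the same gene was not tested, and they were named after their values were seen.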
